A study of Mus musculus with 12 samples.

Results

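Clustered histone genes are the genes named Hist1, Hist2, Hist3 or Hist4 in the deposited table, which encode the linker histone H1 and the core histones H2A, H2B, H3 and H4. They were taken by the start of the symbol alone, which matched 68 of the 24340 rows. Of these, 49 were above 0 in at least 1 of the 12 retinal libraries and 19 were at 0 in all of them. The genes are described because Hist1h1c was among the largest falls after elevation of intraocular pressure (IOP) in mice without ganciclovir (GCV). The list was thus chosen by values of that comparison, in which the fall of Hist1h1c ranked 9 of 18509 rows. Values and counts of that comparison are given as a description, and nothing is read from them. The values of the mice with GCV, among which the gene ranked 163, were also known when the list was chosen.

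All 6 mice carried the p16‐3MR transgene, in which a reporter fused to a viral thymidine kinase is driven by p16 regulatory sequence, so that GCV kills cells that express it. They were 12 to 16 weeks old. The pressure in 1 eye was held at 85 to 90 mmHg for 60 min, and the other eye of the same mouse was the control. Mice 1, 2 and 5 then received GCV at 25 mg/kg daily, mice 3, 4 and 6 did not, and the retinas were taken on day 3. This gave 4 groups of 3 libraries: control, IOP, control with GCV and IOP with GCV.

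Most clustered histone genes are transcribed while DNA is replicated. Their mRNAs end in a stem-loop bound by Slbp and have no poly(A) tail, whereas the replacement histone genes lie elsewhere, are active in resting cells and give ordinary polyadenylated mRNA. Some clustered genes also give longer polyadenylated transcripts in cells that no longer divide. The retina of an adult mouse consists largely of such cells, and H1c is known as an abundant linker histone of its rod photoreceptors. The library kit used here captures polyadenylated RNA, so the levels below are those of histone transcripts that such a library retains.

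The values are fragments per kilobase of exon, scaled to the depth of the library (FPKM), a level per length. Between genes they also depend on where the gene model ends and on how much of the RNA is polyadenylated. Rankings and ratios between genes below are of these values only. Between 6830000 and 9060000 fragments were estimated behind 11 of the libraries and 3990000 behind IOP mouse 6. That library had 14844 rows above 0, against 16044 to 16593 in the others. The rod markers summed to 32580 to 60110 FPKM over the 12 libraries, with all 10 above 0. Summed lens markers were 3.76 to 20.0 FPKM in control retinas, 44.9 to 2343 after IOP, 35.9 to 4302 in control retinas with GCV and 1652 to 3164 after IOP with GCV. All 6 lens genes were above 0, and the control retina of GCV mouse 1 held the highest sum.

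The stem-loop at the mRNA end was searched for in the GENCODE transcripts of all 68 genes on mouse build GRCm38, and is shown because mRNAs that end there carry no poly(A) tail. It was found in 46 of 68 genes and in 36 of the 49 above 0, in 8 different spellings. Some of the others have only a GENCODE transcript shorter than the RefSeq model, such as Hist1h4k (312 bases against 409). A stem-loop not found in such a transcript is thus not known to be absent from the gene. In each line the stem is in capitals and the loop in lower case.
Hist1h1c (chr13:23739512-23739527, + strand): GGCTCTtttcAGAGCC
Hist3h2a (chr11:58955172-58955187, + strand): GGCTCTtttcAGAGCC
Hist1h4h (chr13:23531458-23531473, + strand): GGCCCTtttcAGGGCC
Hist1h4i (chr13:22040966-22040981, − strand): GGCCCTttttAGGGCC
The first spelling is shared by 26 genes, among them Hist1h1c, Hist3h2a and Hist3h2ba, the spelling in Hist1h4h by 7 genes and that in Hist1h4i by 2. No stem-loop was found in the longest transcripts of Hist1h2bc (1156 bases), Hist2h2be (2620 bases) and Hist3h2bb-ps (465 bases).

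The transcripts of the genes with the highest levels mostly ran on past the stem-loop. Among the 12 highest means, a stem-loop was found in 9 genes, and the longest GENCODE transcript went more than 100 bases beyond it in 8 of them. Of the other 37 genes above 0, 27 held a stem-loop, and 11 had such a transcript. The median longest transcript was 1358 bases in the 12 and 534 bases in the 37. These contrasts also depend on how complete the annotated transcripts are. The Hist1h1c transcript of 1560 bases ended 840 bases past its stem-loop, that of Hist3h2a 1643 bases past and that of Hist3h2ba 169 bases past. RefSeq models, on whose exons the study's methods count reads, ended in the release used here within 10 bases of the stem-loop in 33 of the 36 genes, so with these models fragments from the longer ends would not be counted.

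The 250 bases before the RefSeq start are shown for the genes whose levels are described most closely. Capitals mark matches, on either strand, to the CCAAT box, the TATA box (spelled TATAAA), the H1 box (spelled AAACACA) and the octamer found in H2A and H2B promoters (spelled ATTTGCAT). No match in these windows overlaps another.
Hist1h1c (chr13:23738557-23738806, + strand): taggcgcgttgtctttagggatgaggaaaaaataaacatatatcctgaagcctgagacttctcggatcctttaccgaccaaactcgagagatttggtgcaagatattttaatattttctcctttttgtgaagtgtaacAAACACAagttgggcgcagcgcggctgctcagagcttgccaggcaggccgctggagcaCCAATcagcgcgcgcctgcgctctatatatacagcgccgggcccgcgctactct
Hist3h2a (chr11:58954435-58954684, + strand): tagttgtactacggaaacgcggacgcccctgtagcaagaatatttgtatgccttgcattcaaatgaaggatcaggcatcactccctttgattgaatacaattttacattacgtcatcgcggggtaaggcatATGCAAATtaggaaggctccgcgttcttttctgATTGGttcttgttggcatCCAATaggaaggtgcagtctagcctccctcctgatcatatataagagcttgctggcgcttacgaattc
Hist3h2ba (chr11:58948661-58948910, + strand): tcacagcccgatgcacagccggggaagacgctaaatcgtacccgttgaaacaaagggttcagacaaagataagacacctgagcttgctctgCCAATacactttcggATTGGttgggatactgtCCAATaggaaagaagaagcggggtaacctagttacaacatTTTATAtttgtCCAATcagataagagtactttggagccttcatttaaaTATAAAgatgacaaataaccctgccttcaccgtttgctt
Hist1h2ac (chr13:23683960-23684209, − strand): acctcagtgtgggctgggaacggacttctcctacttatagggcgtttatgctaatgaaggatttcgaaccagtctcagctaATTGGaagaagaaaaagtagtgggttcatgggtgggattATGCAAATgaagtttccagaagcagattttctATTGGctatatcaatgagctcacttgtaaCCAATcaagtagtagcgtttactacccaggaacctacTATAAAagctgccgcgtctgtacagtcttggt
In the Hist1h1c promoter the H1 box began 112 bases and CCAAT 54 bases before the start. The Hist3h2a promoter held the octamer at 119 bases and CCAAT at 86 and 68 bases, the first and second of these on the other strand. The Hist3h2ba promoter held CCAAT 4 times, 159 to 76 bases before the start. The Hist1h2ac window spans the 239 bases between its own start and that of Hist1h2bc, which is read the other way.

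Of the 68 genes, 62 had an entry in the RefSeq promoter table. CCAAT was found in 51 of these promoters (82.3%), against 33.8% of all 32851 promoters of the same length. TATAAA was found in 46.8% against 12.4%, AAACACA in 14.5% against 6.2% and ATTTGCAT in 21.0% against 1.6%. By class, AAACACA was in 5 of 6 H1 promoters and ATTTGCAT in 7 of 18 H2A and 6 of 16 H2B promoters. These are matches of letters in a window and no measure of binding.

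A few genes carried nearly all of the signal. Hist1h2bc, an H2B gene, had the highest mean over the 12 libraries at 381 FPKM, followed by the H2A gene Hist3h2a at 134, the H2B gene Hist3h2ba at 68.4 and the linker histone gene Hist1h1c at 27.5. These 4 genes held 90.9% to 95.4% of the summed level of all members, with a median of 93.1%. Hist1h2bc alone held 46.2% to 85.6%, the latter in IOP mouse 6. Only 15 of the 49 genes reached a mean of 1 FPKM, and 34 stayed below it.

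**Figure D1:**
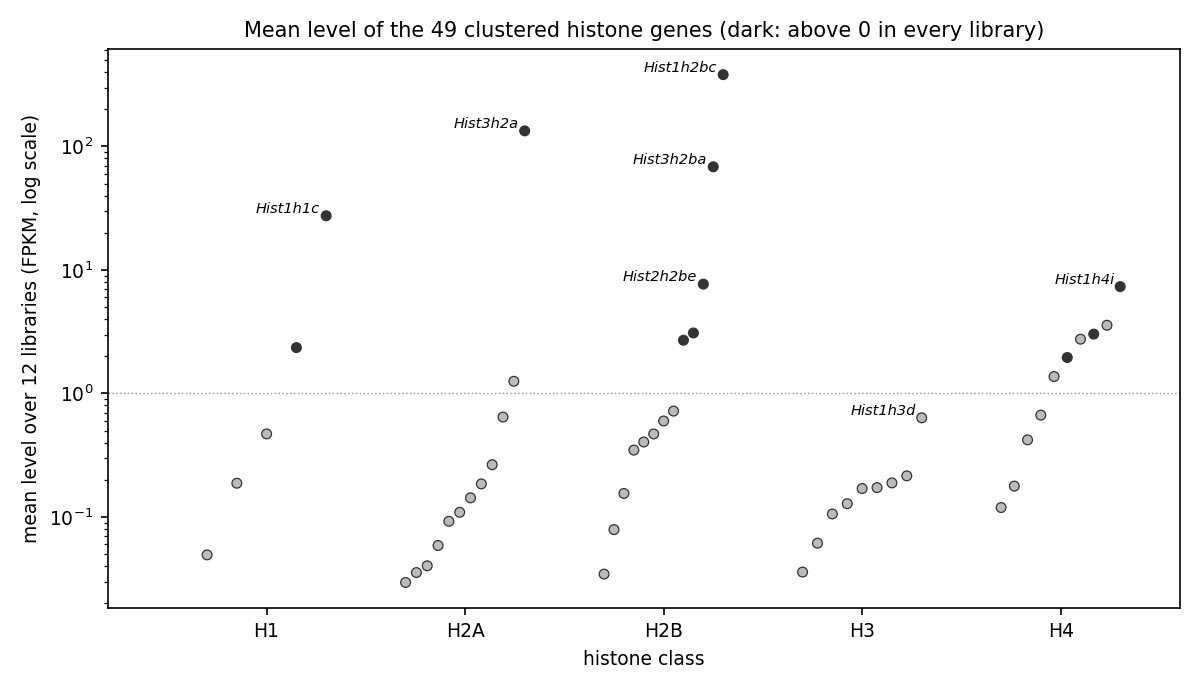
Mean level over the 12 libraries (FPKM, log scale) of each of the 49 clustered histone genes, by histone class, with the highest of each class named and genes above 0 in every library filled dark. The 4 highest genes lie between 27.5 and 381 FPKM, and no H3 gene reached 1 FPKM (dotted line).

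The classes were unequally represented. Of the 6 H1 genes in the table, 5 were above 0 and 2 reached a mean of 1 FPKM, Hist1h1c and Hist1h1e. For H2A the counts were 12 of 18 above 0 with 2 at 1 FPKM or more, for H2B 13 of 19 with 5, and for H4 10 of 13 with 6. None of the 9 H3 genes above 0 of 12 reached 1 FPKM, and the highest, Hist1h3d, had a mean of 0.635 FPKM. Hist1 on chromosome 13 held 37 of the 49 genes, Hist2 on chromosome 3 held 8, Hist3 on chromosome 11 held 3 and Hist4 on chromosome 6 held 1. All 3 Hist3 genes reached 1 FPKM, against 10 of 37 in Hist1 and 2 of 8 in Hist2.

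Many of the values rest on few fragments. An estimate of fragments was possible for 46 of the 49 genes, and 35 of these had fewer than 40 over all 12 libraries together. Of 195 low values of members, 87.2% lay within 0.15 of a whole number of fragments. Of the 49 genes, 11 were above 0 in every library and 5 in 1 library, and the lowest mean was 0.0295 FPKM. By contrast, Hist3h2a rested on an estimated 85.6 to 524 fragments per library, Hist3h2ba on 22.6 to 220, Hist2h2be on 79.0 to 201 and Hist1h1c on 11.6 to 228. Clustered histone genes are near copies of each other within a class, so that fragments may be shared or assigned to the wrong copy, and single low members are uncertain for this reason too.

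Neighbours that start from the same short interval had unequal levels in some places. In 13 places an H2A and an H2B gene are read away from each other with 163 to 280 bases between their starts. Both genes were at 0 in 4 of these pairs and 1 gene in 3, where the mean of the other was at most 0.155 FPKM. Of the 6 pairs with both genes above 0, the ratio of the means was at least 10 in 4 and under 1.5 in 2. At chromosome 13, Hist1h2bc had a mean of 381 FPKM and Hist1h2ac, 239 bases away, of 1.26 FPKM, a ratio of 304. The RefSeq model spans 8282 bases for Hist1h2bc and 487 for Hist1h2ac, and the part of the models in this ratio was not tested. At chromosome 11, Hist3h2a and the pseudogene Hist3h2bb-ps lie 172 bases apart and differed by 43.3-fold. At chromosome 3, Hist2h2be and Hist2h2ac lie 191 bases apart and differed by 29.0-fold. The ratio was 13.2 for Hist1h2bj to Hist1h2ag, 1.12 for Hist1h2bg to Hist1h2ae and 1.17 for Hist1h2bf to Hist1h2ad, all with means under 1 FPKM.

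Hist1h1c encodes linker histone H1c, which binds DNA between nucleosomes. The gene lies at chr13:23738807-23739531 on GRCm38 and is now also named H1f2. Its level was 53.3, 35.5 and 35.1 FPKM in the control retinas of mice 3, 4 and 6, and 12.8, 10.8 and 5.25 FPKM in the IOP retinas of the same mice. In mice 1, 2 and 5 with GCV it was 41.4, 45.2 and 38.6 FPKM in control retinas and 20.6, 18.9 and 12.2 FPKM after IOP. With GCV every IOP retina lay below every control retina, which held for 15.3% of all rows, and the IOP eye was lower in 3 of 3 mice. The same was so in the 3 mice without GCV, where the gene was picked for its fall, and nothing is read from that.

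In the GCV mice, whose libraries are separate from those in which the gene stood among the largest falls, the Hist1h1c level was 41.7 ± 3.33 FPKM in control retinas and 17.2 ± 4.47 FPKM after IOP (SD, n = 3 each). The log2 fold change was −1.26 (SE 0.294). Its limma p, fitted over 18509 rows, was 0.00152 before and 0.0635 after Benjamini-Hochberg adjustment, so the difference did not pass 0.05. The exact permutation test gave p = 0.1 (two-sided), the smallest that 3 against 3 retinas allow. Both p-values are of a gene that was chosen with these data known. Without the IOP retina of mouse 5 the log2 fold change was −1.04 and the adjusted limma p 0.228. Without the control retina of mouse 1 it was −1.26 with an adjusted limma p of 0.178. That retina held a lens marker sum of 4302 FPKM, against 35.9 and 66.4 FPKM in the control retinas of mice 2 and 5 and 1652 to 3164 FPKM in the IOP retinas of this arm. Lens RNA thus went with IOP in the retinas that were left, and its part in the value was not tested. With a filter on low rows or with quantile normalization the adjusted limma p was 0.0401 or 0.0452. The fit reported takes its spread from all 12 libraries, those in which the gene was picked among them. With only the groups compared in the fit, the adjusted limma p was 0.108.

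In the mice without GCV the level was 41.3 ± 10.4 FPKM in control retinas and 9.62 ± 3.90 FPKM after IOP (SD, n = 3 each), with a log2 fold change of −2.04 (SE 0.294). This is the comparison for which the gene was selected on its value, and nothing is read from it. IOP mouse 6, the shallowest library, held the lowest level of Hist1h1c, at an estimated 11.6 fragments. Without that library the log2 fold change was −1.70.

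**Figure D2:**
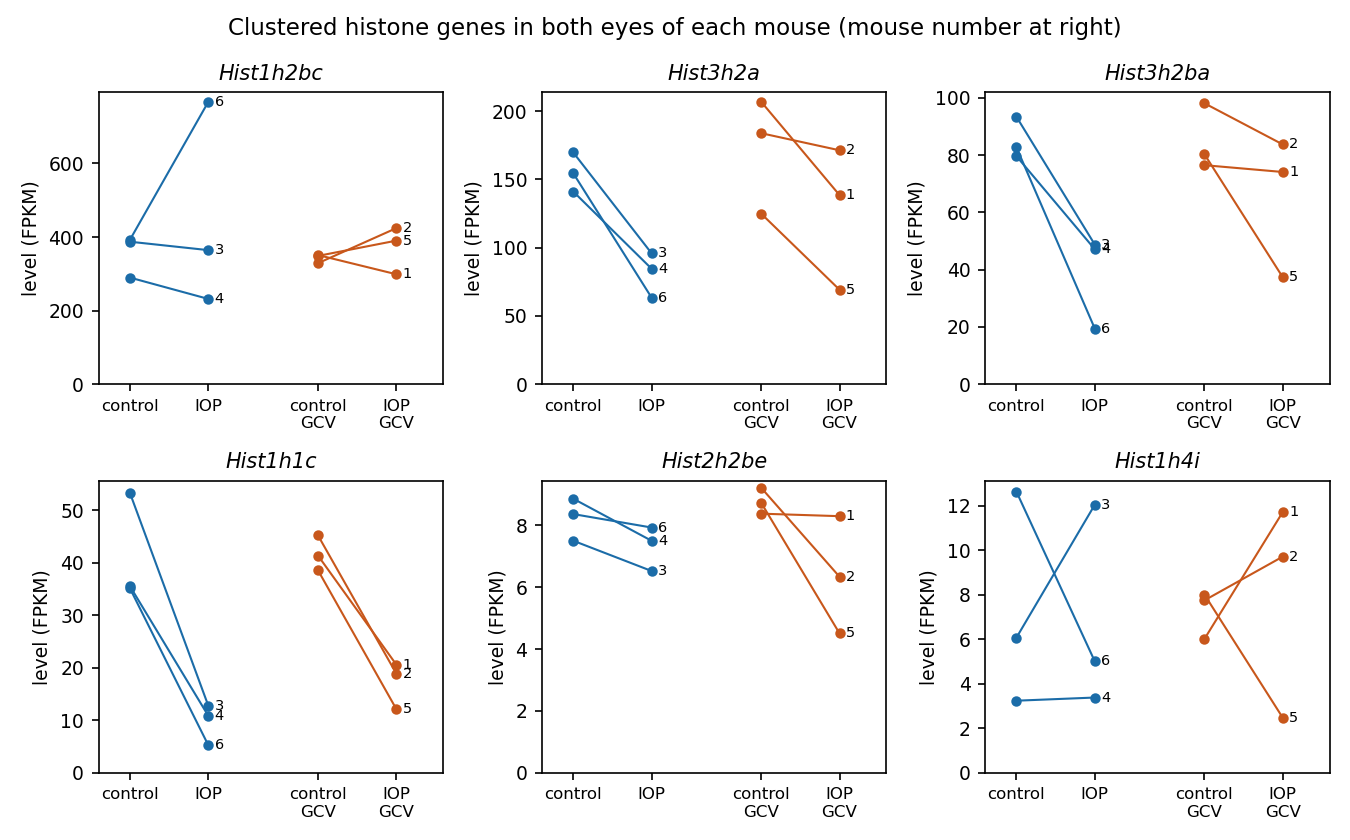
Level (FPKM, linear axes from 0) of 6 clustered histone genes in the control and IOP retinas of each mouse, lines joining the eyes of a mouse, without GCV in blue and with GCV in orange. Hist1h1c lay at 35.1 to 53.3 in control and 5.25 to 12.8 FPKM in IOP retinas without GCV, and at 38.6 to 45.2 and 12.2 to 20.6 FPKM with GCV, while Hist1h2bc and Hist1h4i went both ways.

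The ratio of the IOP eye to the control eye for Hist1h1c was 0.240, 0.305 and 0.15 in mice 3, 4 and 6, and 0.498, 0.418 and 0.315 in GCV mice 1, 2 and 5. The difference of the log2 fold changes was 0.79 (SE 0.416), and between IOP retinas GCV against no GCV gave a log2 fold change of 0.82 (SE 0.294). Both comparisons share the IOP libraries in which the gene was picked for being low, so they are given without a p and nothing is read from their direction. In control retinas the level was 41.3 FPKM without and 41.7 FPKM with GCV, a log2 fold change of 0.04 (SE 0.294).

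Markers of retinal cells moved in the same retinas. The 10 rod markers, summed, had IOP to control ratios of 0.749, 0.684 and 0.862 in mice 3, 4 and 6 and of 0.831, 1.23 and 0.736 in mice 1, 2 and 5. The rod sum was thus higher in the IOP eye of mouse 2 and lower in that of every other mouse. The 9 ganglion cell markers summed to ratios of 0.242, 0.960 and 0.372 in mice 3, 4 and 6 and of 0.640, 0.302 and 0.265 in mice 1, 2 and 5. That sum was lower in the IOP eye of every mouse, though nearly equal in both eyes of mouse 4. The 10 microglia and leukocyte markers were higher in every IOP eye, by 5.85 to 39.1 times in sum. In whole retinas fewer cells of a type and less RNA per cell cannot be told apart, and the part of these markers in the histone values was not tested.

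**Figure D3:**
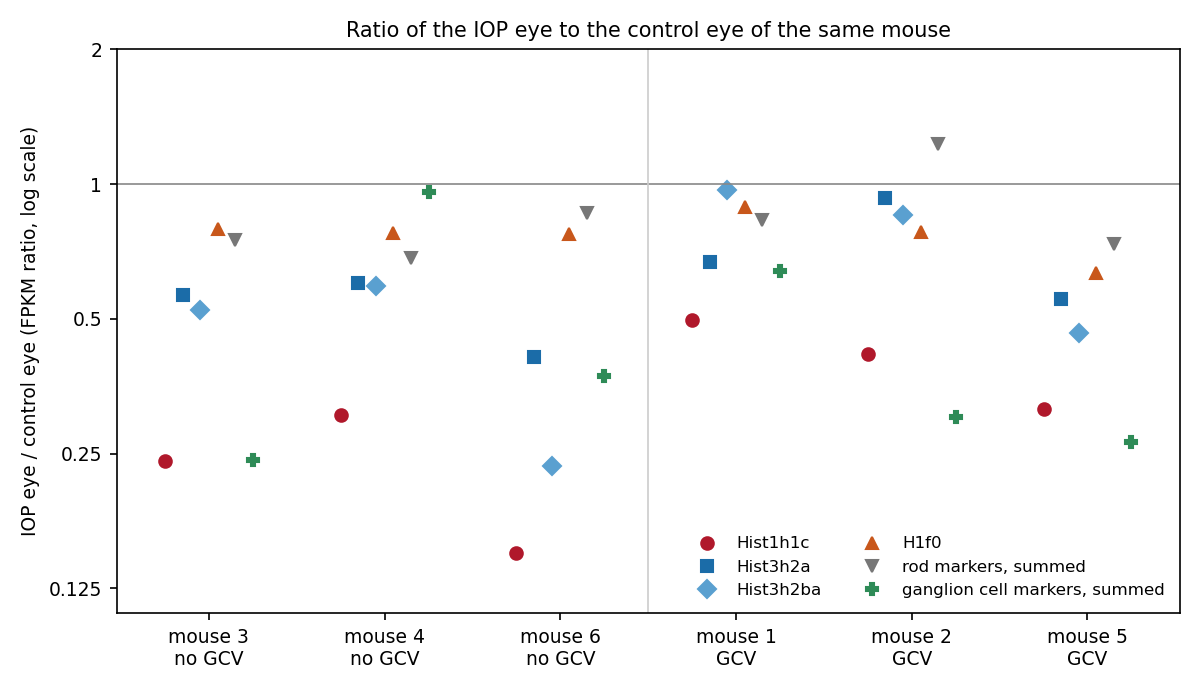
Ratio of the IOP eye to the control eye of the same mouse (log scale) for Hist1h1c, Hist3h2a, Hist3h2ba, the replacement linker histone gene H1f0 and the summed rod and ganglion cell markers. Hist1h1c lies between 0.15 and 0.498 in the 6 mice, and the rod sum between 0.684 and 1.23.

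The other clustered linker histone genes were at lower levels than Hist1h1c. Hist1h1e, which encodes H1e, was at 4.20, 1.96 and 2.42 FPKM in the control retinas of mice 3, 4 and 6 and at 1.42, 1.48 and 2.79 FPKM after IOP. With GCV it was at 3.63, 2.54 and 1.89 FPKM in control retinas and 1.21, 2.82 and 1.87 FPKM after IOP in mice 1, 2 and 5. The groups overlapped in both arms, and the log2 fold change in GCV mice was −0.32 (SE 0.298, adjusted limma p 0.618). Without single libraries it ran from −0.53 to −0.13. H1f0, the replacement linker histone of resting cells and not a clustered gene, was at 51.5 ± 2.34 FPKM in the control eyes and 39.4 ± 5.49 FPKM in the IOP eyes of GCV mice (SD, n = 3 each). It was lower in the IOP eye of 6 of 6 mice, by a log2 fold change of −0.39 in GCV mice (SE 0.102, adjusted limma p 0.0904). Summed over the 4 clustered H1 genes other than Hist1h1c, the level was 5.08, 2.70 and 3.20 FPKM in control and 2.25, 2.07 and 2.79 FPKM in IOP retinas of mice 3, 4 and 6. With GCV the sum was 4.07, 3.88 and 2.38 FPKM in control and 2.05, 3.81 and 2.45 FPKM in IOP retinas of mice 1, 2 and 5, so it was lower in the IOP eye of 5 of 6 mice and nearly equal in both eyes of mice 2 and 5.

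Hist3h2a and Hist3h2ba are neighbours on chromosome 11, at chr11:58954685-58955192 and chr11:58948911-58949372, and encode an H2A and an H2B. Hist3h2a was at 170, 141 and 155 FPKM in the control retinas of mice 3, 4 and 6 and at 95.9, 84.6 and 63.5 FPKM in their IOP retinas. In GCV mice 1, 2 and 5 it was at 207, 184 and 124.9 FPKM in control and 139, 171 and 69.2 FPKM in IOP retinas. The groups were apart without GCV and overlapped with it, and the IOP eye was lower in 3 of 3 mice with and 3 of 3 without GCV. The log2 fold change was −0.94 (SE 0.311) without GCV and −0.51 (SE 0.311) with GCV, where the limma p was 0.133 before and 0.419 after adjustment. With the mouse as a block these were 0.0267 and 0.203.

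Hist3h2ba was at 93.4, 79.6 and 82.7 FPKM in control retinas and 48.8, 47.1 and 19.4 FPKM in IOP retinas of mice 3, 4 and 6. With GCV it was at 76.5, 98.1 and 80.3 FPKM in control and 74.1, 83.8 and 37.4 FPKM in IOP retinas of mice 1, 2 and 5. It too was lower in the IOP eye of 3 of 3 mice with and 3 of 3 without GCV, and its groups overlapped only in the GCV arm. The log2 fold change was −1.23 (SE 0.358) without GCV and −0.45 (SE 0.358) with GCV, where the adjusted limma p was 0.55. Without IOP mouse 6 the value without GCV was −0.81. In the GCV arm, leaving out the IOP retina of mouse 5 brought the log2 fold change of Hist3h2ba to −0.10 and that of Hist3h2a to −0.13, while leaving out the control retina of that mouse gave −0.49 and −0.72. Between the eyes of mice 1, 2 and 5 the log2 difference was −0.045, −0.23 and −1.08 for Hist3h2ba. For Hist3h2a it was −0.57, −0.10 and −0.84. The pseudogene Hist3h2bb-ps between them, at 0.765 to 5.23 FPKM, was lower in the IOP eye of 2 of 3 mice without and 3 of 3 mice with GCV, by a log2 fold change of −0.40 (SE 0.388, adjusted limma p 0.644) with GCV.

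Hist1h2bc, the most abundant member, went both ways. It was at 387, 290 and 393 FPKM in control retinas of mice 3, 4 and 6 and at 365, 232 and 768 FPKM in their IOP retinas. In GCV mice 1, 2 and 5 it was at 351, 329 and 349 FPKM in control and 299, 424 and 390 FPKM in IOP retinas. The groups overlapped in both arms. In GCV mice the log2 fold change was 0.10 (SE 0.355, adjusted limma p 0.942). Without GCV it was 0.19, and without IOP mouse 6 it turned to −0.28.

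Among the other H2B genes, Hist2h2be was at 8.38, 9.21 and 8.73 FPKM in the control retinas of GCV mice 1, 2 and 5 and at 8.30, 6.34 and 4.51 FPKM after IOP. The groups did not overlap, and the IOP eye was lower in 3 of 3 of these mice and in 3 of 3 mice without GCV, where the levels were 7.50, 8.86 and 8.36 against 6.52, 7.50 and 7.93 FPKM. Its log2 fold change in GCV mice was −0.44 (SE 0.177), with a limma p of 0.0328 before and 0.215 after adjustment. Without the IOP retina of mouse 5 it was −0.24 with an adjusted limma p of 0.571. Hist1h2be stayed between 1.74 and 4.38 FPKM in the 12 libraries, and its log2 fold change was 0.16 with GCV (SE 0.209, adjusted limma p 0.76).

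The genes of the core histone H4 varied between eyes of the same mouse without a common direction. Hist1h4i, the highest of them, was at 6.01, 7.74 and 8.003 FPKM in control and 11.7, 9.71 and 2.47 FPKM in IOP retinas of GCV mice 1, 2 and 5. Without GCV it ran from 3.24 to 12.6 FPKM in control and from 3.38 to 12.0 FPKM in IOP retinas. Its log2 fold change was −0.08 in both arms (SE 0.571, adjusted limma p 0.994 with GCV). Hist1h4h ran from 0 to 6.47 FPKM over the 12 libraries, Hist2h4 from 0.593 to 6.03 and Hist1h4c from 0 to 8.24, and none of the 3 had an adjusted limma p under 0.727 in GCV mice. Summed over the class, the IOP to control ratio was 2.13, 1.24 and 0.591 in GCV mice 1, 2 and 5.

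Hist1h3d, the highest H3 gene, was at 0.386, 0 and 0 FPKM in control and 0.740, 1.71 and 1.03 FPKM in IOP retinas of GCV mice 1, 2 and 5. The values rest on an estimated 21 fragments in all 12 libraries, and in the mice without GCV they were 0, 1.95 and 0 FPKM in control and 1.48, 0.338 and 0 FPKM in IOP retinas. The log2 fold change in GCV mice was 0.93 (SE 0.435, adjusted limma p 0.278). It ran from 0.865 to 2.82 under the other settings tried on all libraries.

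Over all members, few calls were made. In GCV mice, IOP against control called 0 of 49 genes with limma at an adjusted p of 0.05, against 1.8% of all 18509 rows. At an unadjusted limma p of 0.05 it called 3, Hist1h1c, Hist2h2be and Hist1h3e, or 6.12%, against 19.2% of all rows. Of these Hist1h1c and Hist2h2be were lower, 2 of 49 against 9.15% of all rows. Hist1h3e, an H3 gene, rests on an estimated 12 fragments in all. With the mouse as a block the count at an unadjusted limma p of 0.05 was 5, beside 19.1% of all rows: Hist3h2a, Hist1h2ab and Hist1h2bh were called and Hist1h3e was not. Of the 49 members, 34 lie under 1 FPKM. Of the 15 members whose mean reached 1 FPKM, 2 were lower at an unadjusted limma p of 0.05, beside 10.9% of the 12911 rows of that level.

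Groups did not overlap, with IOP below control, in 3 members in GCV mice, Hist1h1c, Hist2h2be and Hist3h2bb-ps, and this held for 15.3% of all rows. They did not overlap in the other direction in 2 members, Hist1h2ae and Hist1h3d, and in 14.5% of all rows. The median log2 fold change over the 49 members was 0.008, beside 0.004 over all rows. Over the 15 members whose mean reached 1 FPKM it was −0.08, and over all rows of that level 0.017.

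**Figure D4:**
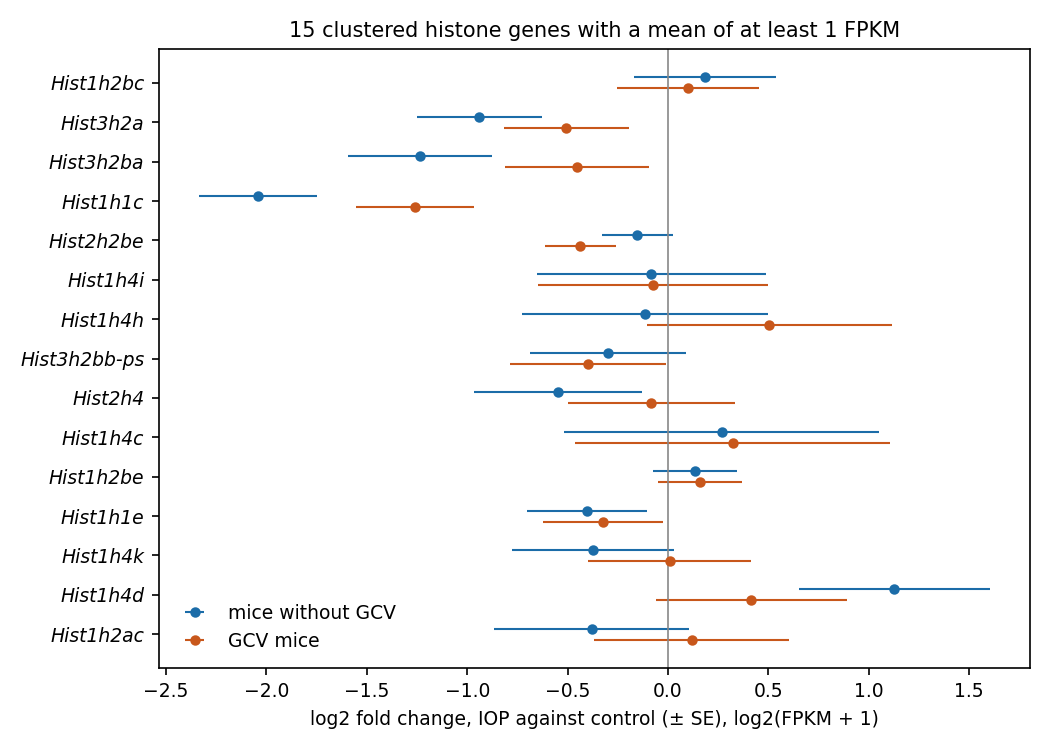
Log2 fold change of IOP against control retinas with its standard error (limma, log2(FPKM + 1)) for the 15 clustered histone genes whose mean reached 1 FPKM, in order of mean level, without GCV in blue and with GCV in orange. Hist1h1c lies at −2.04 and −1.26, the 2 Hist3 genes under Hist1h2bc between −1.23 and −0.45, and the H4 genes on both sides of 0.

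In the mice without GCV, IOP against control called 1 of 49 members, Hist1h1c, beside 1.65% of all rows. At an unadjusted limma p of 0.05 it called 6, beside 18.9% of all rows, and 5 of these were lower, beside 9.42%: Hist1h1c, Hist3h2a, Hist3h2ba, Hist1h2ae and Hist1h4b. The sixth, the H4 gene Hist1h4d, was higher. Groups did not overlap with IOP lower in 3 members, Hist1h1c, Hist3h2a and Hist3h2ba, beside 8.81% of all rows, and with IOP higher in 1, Hist1h4d, beside 11.7%. The median log2 fold change was 0.000 over the 49 members and −0.30 over the 15 whose mean reached 1 FPKM. This comparison served to choose the list, and nothing is read from these counts.

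In the test of whether the effect of IOP differed between mice with and without GCV, 0 of the 48 members other than Hist1h1c passed an adjusted limma p of 0.05, as did 0.0% of all rows. Hist1h1c is not counted, since the libraries in which it was picked enter this comparison. At an unadjusted limma p of 0.05, 1 of the 48 was called, the H2A gene Hist1h2ae, beside 1.93% of all rows. Its level was 0.331, 0.280 and 1.17 FPKM in control and 0, 0.292 and 0 FPKM in IOP retinas of mice 3, 4 and 6, and 0.667, 0.666 and 0.744 against 1.59, 1.11 and 0.886 FPKM in GCV mice 1, 2 and 5. These values rest on an estimated 24 fragments over the 12 libraries. With the mouse as a block Hist1h2ae was again the 1 called of the 48 at an unadjusted limma p of 0.05, beside 2.04% of all rows.

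GCV against no GCV called 0 of 49 members in control retinas at an adjusted limma p of 0.05 and 0.0% of all rows. At an unadjusted p of 0.05 limma called 1, the H4 gene Hist1h4b, beside 1.59% of all rows, and this gene was above 0 in only 2 libraries. In IOP retinas, where Hist1h1c is left out for the same reason, it called 0 of 48 members at an adjusted p of 0.05 and 0.0% of all rows. At an unadjusted p of 0.05 it called 2, Hist1h2ae and Hist1h3e, both higher with GCV, beside 4.18% of all rows.

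Other genes of histone supply were read in the same fits. Of the 11 replacement histone genes, 0 were called by limma in either eye comparison, beside 1.8% of all rows in GCV mice and 1.65% without GCV. At an unadjusted limma p of 0.05 there were 4 in GCV mice, beside 19.2% of all rows, and 3 without GCV, beside 18.9%. H3f3a, which encodes the replacement H3.3, was at 189 ± 55.5 FPKM in the control eyes and 295 ± 83.7 FPKM in the IOP eyes of GCV mice (SD, n = 3 each, adjusted limma p 0.201), and H3f3b at 376 ± 52.2 and 345 ± 38.2 FPKM. These levels stood beside at most 2.83 FPKM for all clustered H3 genes together. Of 15 genes for transcription of histone genes and processing of their mRNA, 0 were called by limma in either comparison, with 0 at an unadjusted p of 0.05 in GCV mice and 2 without GCV, beside 19.2% and 18.9% of all rows. Slbp, the stem-loop binding protein, was at 11.3 ± 0.241 and 11.2 ± 0.982 FPKM in control and IOP retinas of GCV mice.

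Genes of DNA replication and mitosis rose in part. The microglia and leukocyte markers were higher in the same IOP eyes, and their part in this rise was not tested. In GCV mice 3 of 18 were called, beside 1.8% of all rows, all higher: Top2a, a topoisomerase, from 0.0820 to 0.888 FPKM (adjusted limma p 0.0157), Rrm2, a subunit of ribonucleotide reductase, from 0.0916 to 0.649 FPKM (adjusted limma p 0.0226), and Mki67, a marker of dividing cells, from 0.0663 to 0.831 FPKM (adjusted limma p 0.044). With the mouse as a block their adjusted limma p were 0.0619, 0.109 and 0.0713, so none passed. Without GCV 4 of 18 were called, beside 1.65% of all rows, all higher: the same 3 genes and Cdk1, a kinase that drives entry into mitosis (adjusted limma p 0.036). With the mouse as a block Top2a and Mki67 of these passed, at 0.0371 and 0.0432. Of 17 histone chaperones, 2 were called in GCV mice, beside the same 1.8% of all rows, both higher. Asf1b, which hands H3 and H4 to replicating chromatin, was at 3.57 ± 0.398 FPKM in the control eyes and 15.2 ± 5.83 FPKM in the IOP eyes (SD, n = 3 each, adjusted limma p 0.0141, 0.0522 with the mouse as a block). Daxx, a chaperone of H3.3, was at 12.8 ± 0.327 and 22.4 ± 3.44 FPKM (adjusted limma p 0.0378, 0.0843 with the block). Without GCV 1 of 17 was called, Asf1b, whose mean was 4.16 FPKM in the control eyes against 16.2 FPKM after IOP (adjusted limma p 0.0197, 0.0664 with the block). The clustered H3 genes together were at 0.495 to 2.75 FPKM in control and 2.42 to 2.83 FPKM in IOP retinas of GCV mice, and the clustered H4 genes in these mice at 12.2 to 26.5 and 10.97 to 32.8 FPKM.

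Most members are short, and a set of short genes moved with the condition. In 58 genes with a single transcript of 300 to 800 bases the median log2 difference between the IOP and the control eye was above 0 in each of the 6 mice, from 0.08 to 0.43. In 791 genes of at least 1500 bases it was −0.14 to −0.01. The RefSeq model has 725 bases for Hist1h1c, 508 for Hist3h2a and 462 for Hist3h2ba, while that of Hist2h2be spans 2667 bases and lies outside the short class. Short and long genes are different genes, so length and gene content cannot be told apart here. The part of length in the values was not tested.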

How the data were processed

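Retinal RNA of 6 p16‐3MR mice, each eye a library of its own, was sequenced with a stranded poly(A) mRNA kit. The authors' methods state that reads on exons of RefSeq genes were counted with HOMER, while the submitters' processing notes list TopHat2, Bowtie2, Cufflinks and Cuffdiff and build mm10. The values deposited by the authors are FPKM per gene, replicates not pooled. The unit was inferred from the values, and any scaling between libraries is not given in the sources used here. No column was left unused (0). Coordinates and sequences are from RefSeq and GENCODE on GRCm38, the same build as mm10.

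The package limma 3.58.1 (R 4.3.3) was run on the log2 of FPKM plus 1 for 18509 rows above 0 in at least 1 of the 12 libraries, with 4 group means, a variance trend and Benjamini-Hochberg adjustment at 0.05 (a count test had been written for the case that the table held counts). Fold changes on this scale understate the change of low genes. Fragments per library were estimated from the steps between low values of genes of at least 1500 bases, of which 79.8% to 86.0% lay near whole fragments. Low values have wide counting error, for which no interval is given. Promoters and stem-loops were searched in reference sequence on both strands and on the transcript strand. The limma fits were tested on simulated data. Named genes are the 12 members with the highest mean, members called in any comparison, the highest of each histone class, among members with a mean of at least 1 FPKM the one of each class with the largest change in GCV mice, and Hist1h1c. Of each other list the 2 highest genes and up to 3 called genes were eligible. Genes named beside these (H1f0, Slbp, Cdk1, and members counted at an unadjusted p) were chosen after their values were seen. The members and lists were chosen with earlier results of these data known.

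Both eyes of a mouse share an animal, so the mouse number pairs the libraries. Deviations from the group means correlated between the eyes by −0.117, 0.132, 0.207, 0.388, 0.166 and 0.0998 in mice 1 to 6. The fit with the mouse as a block, other pseudocounts, filters, scalings and thresholds, and leaving out each library were tried as alternatives.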

Additional observations from a re-analysis of the deposited data

How the results depend on the processing

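The lower level of Hist1h1c after IOP in GCV mice (log2 fold change −1.26, adjusted limma p 0.0635) kept its direction under every alternative run, from −1.40 to −1.04 when 1 library was left out. It passed 0.05 with a filter of 1 FPKM in 3 libraries (−1.26) and with quantile normalization (−1.30). With only the groups compared in the fit, the adjusted limma p was 0.108. With the replicate block for the pair of eyes the value was −1.26 (adjusted limma p 0.0569), and the block changed no call of a clustered histone gene at an adjusted p of 0.05. Members were also counted with the block at an unadjusted limma p of 0.05, an alternative added after seeing the data. In GCV mice 5 were called, beside 19.1% of all rows. For the difference of the IOP effect 1 of the 48 members other than Hist1h1c was called, beside 2.04% of all rows. Hist1h1c is left out there because it was picked in libraries that enter that comparison. Without GCV the count was 6, for which no share of all rows was computed and from which nothing is read. The count of members called in GCV mice, 0 in the fit reported, was 1 with that filter, which left 20 members. It was 1 with quantile normalization, 1 at an adjusted p of 0.1, and 0 to 0 without single libraries. At an unadjusted limma p of 0.05 it was 3, beside 19.2% of all rows. For the other settings no share of all rows was computed, so nothing is read from those counts. Without GCV the count of 1 was 6 at an unadjusted limma p of 0.05, beside 18.9% of all rows. It was 0 with only the groups compared in the fit, and 0 to 3 without single libraries. It was 0 without control mouse 3. Without control mouse 4 Hist1h1c was not called and Hist1h4b was. Without IOP mouse 4 Hist3h2ba and Hist1h2bj were called beside Hist1h1c.

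The count of 0 for the difference of the IOP effect was 1 at an unadjusted limma p of 0.05, beside 1.93% of all rows, and 0 to 1 without single libraries. That for GCV in control retinas was 1 at an unadjusted limma p of 0.05, beside 1.59%, and 0 to 1 without single libraries. For GCV in IOP retinas, with Hist1h1c left out, it was 2 at an unadjusted limma p of 0.05, beside 4.18%, and 0 to 0 without single libraries. Without control mouse 4 the member called was Hist1h4b, which is at 0 in all but 2 libraries. For GCV against no GCV no paired analysis was possible because each mouse had only 1 treatment, and the fit of only the groups compared gives no difference of effects.

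Some fold changes changed sign. Hist2h4 in GCV mice, at −0.08, was 0.018 with a pseudocount of 0.1 FPKM and −0.61 to 0.25 without single libraries. In GCV mice, single libraries left out gave −0.005 to 0.25 for Hist1h2bc (0.099 with all), −0.43 to 0.51 for Hist1h4i (−0.075), −0.27 to 1.11 for Hist1h4h (0.50) and −0.20 to 0.86 for Hist1h4c (0.32). Without GCV they gave −0.28 to 0.58 for Hist1h2bc (0.185), −0.53 to 0.35 for Hist1h4i (−0.084), −0.46 to 0.26 for Hist1h4h (−0.12), −0.59 to 0.17 for Hist3h2bb-ps (−0.30), −0.27 to 1.03 for Hist1h4c (0.27), −0.054 to 0.25 for Hist1h2be (0.13) and −0.31 to 0.58 for Hist1h3d (0.056). The cause was not tested. Of the members with an estimate, 35 of 46 rest on fewer than 40 fragments in all libraries together, and their fold changes carry wide counting error.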
